A study of Mus musculus with 2 samples.

Results

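Stefin A is a cytosolic inhibitor of cysteine proteases, and in the mouse it is encoded by a cluster of closely related genes on chromosome 16. The 6 genes described here were Stfa1, Stfa2, Stfa2l1, Stfa3, Cstdc4 and Cstdc5. They were taken by name from the 32285 genes of the deposited count tables, and all 6 were found in both libraries. The members were selected on their CPM ratio between the libraries and on their detection in neutrophils, so these values are a description with no test.

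Single-cell RNA (scRNA) sequencing was performed on live CD45+ cells, that is, cells with the common leukocyte surface protein, sorted from liver tumors of the lenvatinib-resistant Trp53KO/MYCOE mouse model of hepatocellular carcinoma (HCC). In that model, wild-type C57BL/6J mice received plasmids by hydrodynamic tail vein injection, so that hepatocytes overexpressed MYC and lost Trp53 through CRISPR, and the tumors were made resistant by giving lenvatinib. Lenvatinib is an oral inhibitor of several receptor tyrosine kinases. In 1 library the tumors were under lenvatinib, and in the other they were under lenvatinib and the CDK4/6 inhibitor palbociclib (combo). The leukocytes were those of the host and did not carry the plasmids by design. The number of mice behind each library was not given in the sources used here.

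The lenvatinib library held 14509 cell barcodes and 98107503 unique molecular identifiers (UMIs, which count each captured transcript once), and the combo library held 11989 barcodes and 93583402 UMIs. Cells were kept where they had at most 6000 genes and at most 25% mitochondrial UMIs, which left 14201 and 11613. The libraries shared 49 barcode sequences, of which 2 were neutrophils in the lenvatinib library and 12 in the combo library. With 1 library per treatment, treatment cannot be told apart from library, mouse or batch. The 95% intervals below cover counting error only, and no p-value was computed.

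Stefins, or type 1 cystatins, are small single-domain proteins without a signal peptide. They bind tightly and reversibly in the active site of papain-like cysteine proteases such as cathepsins B, H, L and S, and so limit the damage done by cathepsins that leak from lysosomes. Humans have a single stefin A gene, CSTA, whereas the mouse genes were duplicated. In the mouse, several of the copies are known from bone marrow and neutrophils, the short-lived granulocytes that carry large stores of proteases in their granules. Counting transcripts at their 3′ end gives each transcript 1 UMI whatever its length, so levels are given as counts per 1000000 UMIs (CPM) without division by length.

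The 6 genes lay within 299 kb of chromosome 16 in mouse genome build GRCm38 (mm10), from position 36156811 to 36455392. All were annotated as protein-coding, and the longest transcript of each had 3 exons. Stfa2l1, Cstdc4 and Stfa1 were on the plus strand, and Cstdc5, Stfa2 and Stfa3 were on the minus strand. Going along the chromosome, Stfa2l1 and Cstdc4 came first, followed by Csta3 and Csta2, then Stfa1, Cstdc6, Cstdc5, Stfa2 and Stfa3.

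Promoter sequences of all 6 genes were found in RefSeq for GRCm38.p6. The 120 bases that end at the first base of each RefSeq transcript are shown. These windows share runs of 10 or 13 bases. The capitals mark 3 runs that all 6 promoters held in the same order, written 5′ to 3′ on the strand of the gene.
Stfa2l1: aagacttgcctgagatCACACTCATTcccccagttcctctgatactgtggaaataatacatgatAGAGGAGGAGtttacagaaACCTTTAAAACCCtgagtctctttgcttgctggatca
Cstdc4: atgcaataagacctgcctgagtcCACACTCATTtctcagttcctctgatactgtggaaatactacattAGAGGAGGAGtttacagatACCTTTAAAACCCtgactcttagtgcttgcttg
Stfa1: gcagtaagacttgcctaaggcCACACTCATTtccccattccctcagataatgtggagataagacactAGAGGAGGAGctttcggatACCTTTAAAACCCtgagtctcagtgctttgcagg
Cstdc5: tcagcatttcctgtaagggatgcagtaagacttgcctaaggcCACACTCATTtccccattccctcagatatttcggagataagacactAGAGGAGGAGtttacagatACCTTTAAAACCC
Stfa2: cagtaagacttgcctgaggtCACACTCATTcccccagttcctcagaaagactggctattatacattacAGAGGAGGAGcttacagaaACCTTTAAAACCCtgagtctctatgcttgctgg
Stfa3: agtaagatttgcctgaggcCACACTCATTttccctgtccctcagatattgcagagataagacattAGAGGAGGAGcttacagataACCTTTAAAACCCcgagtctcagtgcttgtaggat
The Stfa2l1 window was chr16:36156692-36156811 on the plus strand. The Cstdc4 window was chr16:36184093-36184212 on the plus strand. The Stfa1 window was chr16:36277029-36277148 on the plus strand. The Cstdc5 window was chr16:36367570-36367689 on the minus strand. The Stfa2 window was chr16:36408363-36408482 on the minus strand. The Stfa3 window was chr16:36455392-36455511 on the minus strand. The GENCODE vM21 annotation places some starts elsewhere. There Stfa1 starts at 36276951 and Cstdc5 at 36367748, so their windows lie inside the annotated genes. The GENCODE start of Stfa2, 36408457, lies inside its window.

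The run nearest the start, ACCTTTAAAACCC, began between positions -36 and -12, counted from 0 at the first base of the RefSeq transcript. Searched on both strands, it was found in 9 of 32851 mouse promoters (0.0274%), each of 300 bases. The other 3 promoters were those of Csta3, Cstdc3 and Gm7260. The run CACACTCATT was found in 37 promoters (0.113%) and AGAGGAGGAG in 337 (1.03%). A further run of 13 bases, GATCATTTCTTCT, began between positions -4 and 21 in the 6 genes and was found in 10 promoters (0.0304%). The runs were read off the members themselves, so their presence in all 6 is no result, and none was matched to a transcription factor.

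The transcripts were also alike. Stfa1 and Cstdc5 had 97.1% identical bases over their longest transcripts, and Stfa2 and Stfa2l1 had 95.7%, against a median of 81.2% over the 15 pairs. Of all 90-base stretches of the last 300 bases of each transcript, 41.7% of those of Cstdc5 also occurred in Cstdc6 or Stfa1, 21.3% of those of Cstdc4 in Csta2 and 15% of those of Stfa1 in Cstdc5. The share was 3.79% for Stfa2, 3.32% for Stfa2l1 and 0 for Stfa3. At 50 bases the shares were 66.1% for Cstdc5, 38.9% for Stfa1, 33.9% for Cstdc4, 25.1% for Stfa2, 24.3% for Stfa2l1 and 0 for Stfa3. Reads that match several genes are not counted by the counting software, and the read length was not given in the sources used here. The split of counts between Stfa1 and Cstdc5 and the level of Cstdc4 are therefore uncertain. With reads near 50 bases, so is the split between Stfa2 and Stfa2l1.

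Neutrophils were taken as cells in which S100a8 and S100a9, the subunits of calprotectin, made up at least 0.5% of UMIs. This gave 929 neutrophils in the lenvatinib library (6.54% of cells, 95% interval 6.14 to 6.96%) and 2311 in the combo library (19.9%, 19.2 to 20.6%). Their median depth was 2709 UMIs under lenvatinib and 5959 under combo. Other neutrophil genes were present. Csf3r, the receptor for granulocyte colony-stimulating factor, had a UMI in 80.6% and 83.8% of them, and the chemokine receptor gene Cxcr2 in 67.9% and 77.5%. Among cells at 0.5 to 2%, Csf3r had a UMI in 76.3% of 279 under lenvatinib and 52.2% of 429 under combo. T cells held S100a8 at 125 CPM under lenvatinib and 701 CPM under combo, so the background under this fixed gate differed between the libraries. Its part in the numbers of neutrophils was not tested.

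The gate also took cells with genes of other types. Of the neutrophils, 144 (15.5%) under lenvatinib and 999 (43.2%) under combo also passed the gate for monocytes, which uses Ly6c2 and Chil3 among its genes. The monocyte genes differed among themselves. Ccr2 was at 57.5 and 96.5 CPM in neutrophils under lenvatinib and combo, against 698 and 622 CPM in monocytes, and Csf1r at 47.7 and 45.8 CPM against 300.4 and 313 CPM. Ly6c2 was at 676 and 811 CPM in neutrophils, against 918 and 532 CPM in monocytes. The T cell gate was passed by 63 (6.78%) and 99 (4.28%) of the neutrophils. With all cells that passed another gate left out, the summed level of the 6 genes was 1617 CPM under lenvatinib and 12999 CPM under combo.

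Stfa2l1 and Cstdc4 were the members with most counts in lenvatinib neutrophils. Stfa2l1 was at 451 CPM (95% interval 431 to 472) under lenvatinib and at 1339 CPM (1324 to 1355) under combo. Cstdc4 was at 472 CPM (452 to 494) under lenvatinib and at 1636 CPM (1618 to 1653) under combo. Both were thus higher under combo, by 2.97 times (2.83 to 3.11) for Stfa2l1 and 3.46 times (3.31 to 3.63) for Cstdc4.

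The other 4 members were rare under lenvatinib and abundant under combo. Stfa1 was at 39.0 CPM (33.2 to 45.5) under lenvatinib and at 1814 CPM (1795 to 1832) under combo. Cstdc5, its closest relative in sequence, was also at 39.0 CPM under lenvatinib and reached 2262 CPM (2241 to 2282) under combo, where it was the member with the highest level. Stfa2 was at 21.2 CPM (17.0 to 26.1) and 1299 CPM (1284 to 1315). Stfa3 was at 17.5 CPM (13.7 to 22.1) and 569 CPM (559 to 580), the lowest level in both libraries.

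Under combo these 4 genes were higher by 46.6 times for Stfa1 (39.9 to 54.7), 58.0 times for Cstdc5 (49.7 to 68.2), 61.3 times for Stfa2 (49.7 to 76.6) and 32.5 times for Stfa3 (25.8 to 41.5). The intervals of Stfa1, Cstdc5 and Stfa2 overlapped. They did not overlap those of Stfa2l1 and Cstdc4. The division into 2 and 4 genes was made after the values were seen. The order of the levels changed with it: Cstdc4 and Stfa2l1 led under lenvatinib, with overlapping intervals, whereas Cstdc5, Stfa1 and Cstdc4 led under combo.

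Summed over the 6 genes, the level was 1040 CPM (1009 to 1072) under lenvatinib and 8919 CPM (8878 to 8960) under combo, a ratio of 8.58 (8.32 to 8.84). Ratios were computed for the 2659 genes that reached 50 CPM in either library and 10 counts in both. Of these, 2.44% were at least 2-fold higher under combo and 11.3% at least 2-fold lower. All 6 members were among the higher ones, which their choice had set. Stfa1, Stfa2, Stfa3 and Cstdc5 passed the minimum of 50 CPM only through combo. By ratio, Stfa2, Cstdc5, Stfa1 and Stfa3 ranked 1 to 4 of the 2659 genes, Cstdc4 ranked 18 and Stfa2l1 ranked 24. The median ratio over all tested genes was 0.757.

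**Figure D1:**
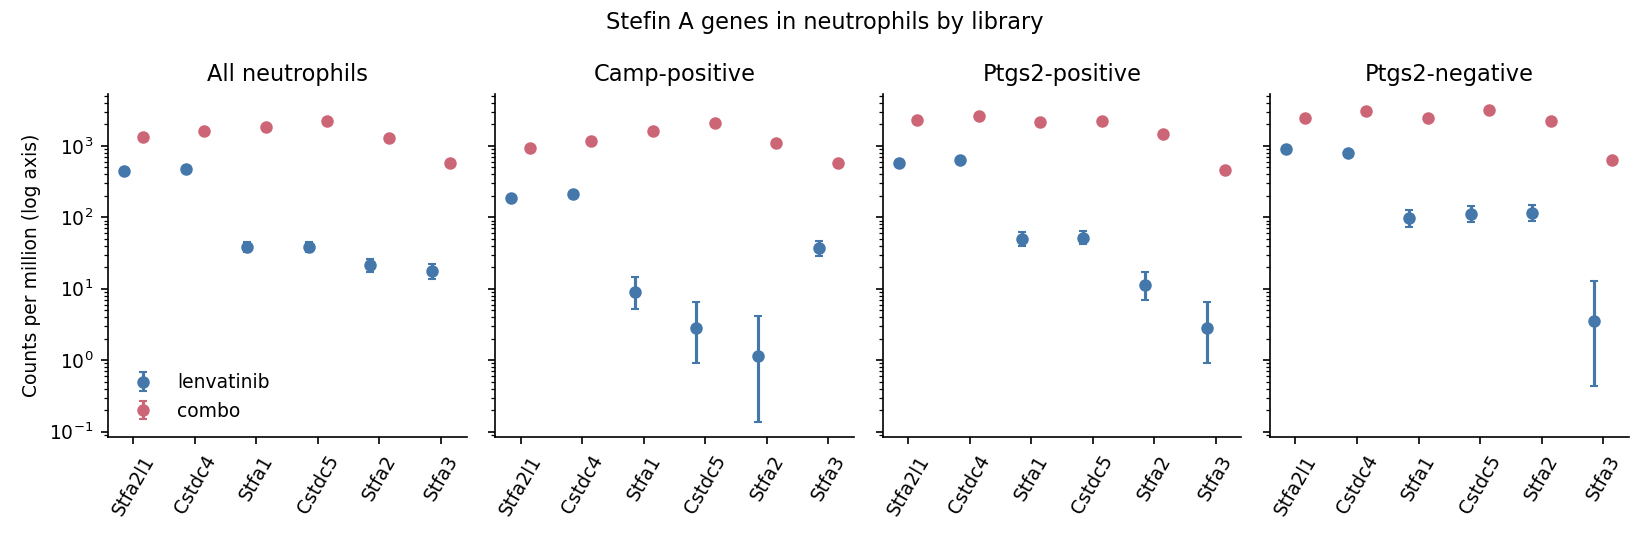
Level of each of the 6 genes in CPM, on a log axis, in all neutrophils and in 3 subsets, with lenvatinib in blue and combo in red; bars are exact Poisson 95% intervals and each point is 1 library. Under lenvatinib Stfa2l1 and Cstdc4 stand at 451 and 472 CPM in all neutrophils and the other 4 at 39.0 CPM or less, while under combo all 6 lie between 569 and 2262 CPM.

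The makeup of the family therefore differed between the libraries. Stfa2l1 and Cstdc4 held 88.8% (87.8 to 89.7%) of the family's 4271 UMIs in lenvatinib neutrophils and 33.4% (33.1 to 33.6%) of the 181684 UMIs in combo neutrophils. Cstdc5 alone held 3.75% and 25.4%, and Stfa1 held 3.75% and 20.3%.

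In lenvatinib neutrophils the counts of the 4 rare members came from few cells. Stfa3 had 72 UMIs in 11 cells, and 58 of them (80.6%) came from 1 cell. Stfa2 had 87 UMIs in 16 cells, with 31 (35.6%) in 1 cell. Cstdc5 had 160 UMIs in 18 cells, with 46 (28.8%) in the highest, and Stfa1 had 160 UMIs in 37 cells, with 18 (11.2%) in the highest. By contrast, the highest cell held 6.80% of the Cstdc4 UMIs and 5.02% of the Stfa2l1 UMIs. In combo neutrophils no member had more than 2.48% of its UMIs in 1 cell.

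The ratios of Stfa3 and Stfa2 depended on single cells. With the lenvatinib neutrophil that held most of its counts left out, a check chosen after seeing the data, the log2 ratio of Stfa3 went from 5.02 to 7.38, with a lenvatinib level of 3.42 CPM. For Stfa2 it went from 5.94 to 6.57. With cells past another gate left out, it was 6.72 for Stfa3 and 5.12 for Stfa2. Over all alternatives run, the ratio stayed between 26.8 and 166 for Stfa3, 34.8 and 95.2 for Stfa2, 38.0 and 57.9 for Stfa1, and 43.2 and 81.4 for Cstdc5. For Stfa2l1 it stayed between 2.62 and 3.73, and for Cstdc4 between 3.12 and 4.88. The alternatives drew on the same 2 libraries and the 2 sets of members were formed from these ratios, so the ranges are no check of that division.

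Along the chromosome, the ratio was low at one end of the cluster and high over the rest. Csta2 and Csta3, stefin A-like genes between Cstdc4 and Stfa1, were scarce but had ratios between those of the 2 sets of members. Csta2 was at 6.82 CPM under lenvatinib and 84.1 CPM under combo, a ratio of 12.3 (8.51 to 18.6). Csta3 was at 4.63 and 26.1 CPM, a ratio of 5.63 (3.57 to 9.43). Cstdc6 had 0 UMIs in lenvatinib neutrophils and 8.93 CPM under combo, which was at least 12.2-fold higher than the 3 counts taken as the floor over the lenvatinib neutrophils. Csta1, on the far side of Stfa2l1, had 0 UMIs in both libraries. Cstdc6 and Csta2 share transcript stretches with Cstdc5 and Cstdc4, so their counts carry the same uncertainty.

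**Figure D2:**
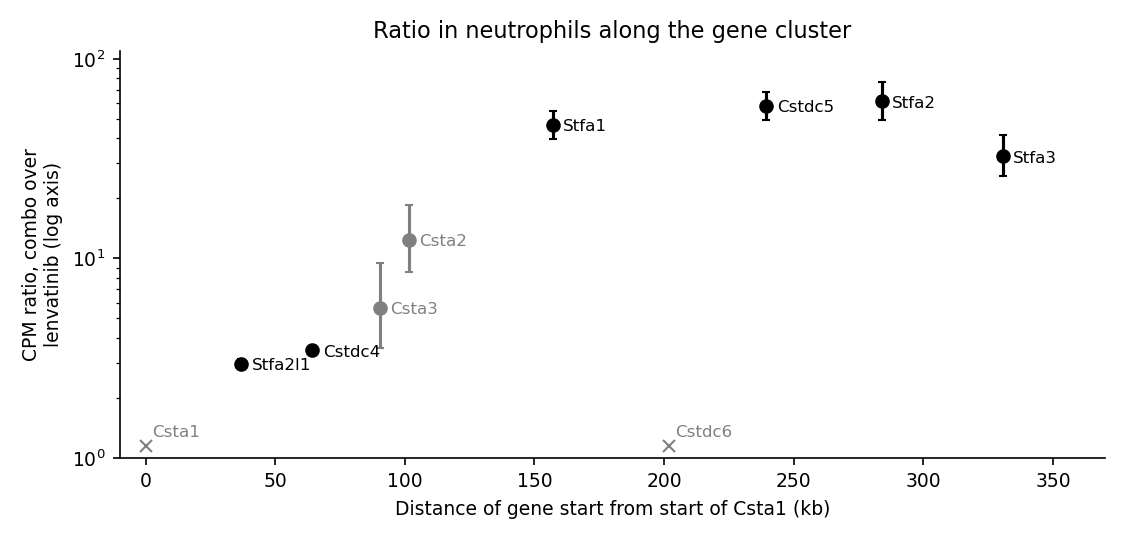
Ratio of CPM in combo over lenvatinib neutrophils, on a log axis, against the distance in kb of each gene from Csta1, with members in black, neighbouring genes in grey and exact conditional 95% intervals as bars. Crosses at the bottom mark Csta1 and Cstdc6, which had no lenvatinib count and no ratio; the ratio is 2.97 for Stfa2l1 and 3.46 for Cstdc4 and at least 32.5 for the 4 members farther along.

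Neutrophils were split by Camp, a gene expressed in immature neutrophils whose product, cathelicidin, is stored in secondary granules. The cells without a Camp UMI were split by Ptgs2, the gene of the inducible cyclooxygenase COX-2. There were 223 Camp-positive, 506 Ptgs2-positive and 200 Ptgs2-negative neutrophils under lenvatinib. Under combo there were 1121, 628 and 562. A Camp UMI was also found in 12.7% of T cells under lenvatinib and 31.0% under combo, and 82 of the 223 and 541 of the 1121 Camp-positive neutrophils held only 1 or 2, so the part of free RNA in this split was not tested. The Camp-positive cells of the combo library were deeper, with a median of 11922 UMIs against 5106 under lenvatinib.

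The summed level was higher under combo in each subset. It was 446 CPM (416 to 478) and 7481 CPM (7437 to 7526) in Camp-positive cells, 1325 and 11198 CPM in Ptgs2-positive cells, and 2002 and 14024 CPM in Ptgs2-negative cells, under lenvatinib and combo. The ratios were 16.8 (15.6 to 18.0), 8.45 (8.10 to 8.81) and 7.0 (6.60 to 7.44). The background of genes at least 2-fold higher under combo was 3.39% of 2417 genes in Camp-positive cells, 3.3% of 2789 in Ptgs2-positive cells and 2.31% of 2817 in Ptgs2-negative cells. Of the members with enough counts there, 4 of 4, 5 of 5 and 5 of 5 were higher, which again their choice had set. Stfa1 and Stfa3 in Camp-positive cells and Stfa2 in Ptgs2-positive cells passed the 50 CPM minimum only through combo, and the members not counted had under 10 UMIs under lenvatinib.

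In Camp-positive cells, Stfa2 had 2 UMIs under lenvatinib, or 1.13 CPM (0.137 to 4.09), and 1095 CPM under combo, a ratio of 967 with an interval of 268 to 7987. Cstdc5 had 5 UMIs, or 2.83 CPM, against 2103 CPM. For Stfa2l1 and Cstdc4 the ratios in these cells were 4.95 (4.44 to 5.54) and 5.52 (4.98 to 6.14). In Ptgs2-negative cells their ratios were 2.75 (2.51 to 3.01) for Stfa2l1 and 3.91 (3.55 to 4.32) for Cstdc4.

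Within a library, the 3 subsets kept the same order of summed level. The summed level was highest in Ptgs2-negative and lowest in Camp-positive cells under both treatments. Under combo, some other measures differed. The median family share of a cell's UMIs was 0.430% in Ptgs2-positive, 0.343% in Ptgs2-negative and 0.191% in Camp-positive cells. With cells thinned to equal depth, 14.7%, 21.1% and 31.5% of them had no member. Raw mean family UMIs per cell were 56.7, 66.7 and 96.9. The mean of CPM per cell kept the order, at 10889, 11987 and 9102 CPM. Under lenvatinib the thinned shares kept it, at 58.7%, 52.8% and 78.5%. In summed level, Ptgs2-positive over Ptgs2-negative cells gave a ratio of 0.662 (0.616 to 0.711) under lenvatinib and 0.798 (0.787 to 0.810) under combo. Camp-positive over Ptgs2-negative cells gave 0.223 (0.203 to 0.244) and 0.533 (0.527 to 0.540). Under lenvatinib, 2 of the 5 tested members were at least 2-fold lower in Ptgs2-positive than in Ptgs2-negative cells, against 1.87% of 2946 genes, and under combo 0 of 6 were, against 0.422% of 2371 genes. The 2 were Stfa2, at 11.3 against 115 CPM, and Cstdc5, at 51.8 against 112 CPM. Stfa2 passed the 50 CPM minimum only through Ptgs2-negative cells, where 31 of its 65 UMIs came from 1 cell. In Camp-positive cells, 3 of the 3 members with enough counts were at least 2-fold lower than in Ptgs2-negative cells under lenvatinib, against 21.6% of 2932 genes. Of these, Stfa1, at 9.06 and 97.7 CPM, passed the 50 CPM minimum only through Ptgs2-negative cells. Stfa3, which had too few counts to enter, went the other way, at 36.8 and 3.55 CPM, with most of its counts in 1 cell. Under combo 3 of 6 were lower, against 7.36% of 2337 genes. Camp-positive and Ptgs2-negative cells differed in depth, with medians of 5106 and 2155 UMIs under lenvatinib and of 11922 and 3936 under combo, and the part of depth in these ratios was not tested.

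The Camp count of a cell separated the members further. Under lenvatinib, Stfa2l1 and Cstdc4 together were at 1321 CPM in cells without a Camp UMI, at 1180 CPM with 1 or 2, at 1596 CPM with 3 to 9, at 511 CPM with 10 to 99 and at 61.5 CPM with 100 or more. Under combo they were at 5191, 3755, 3114, 2799 and 695 CPM in the same bins. Their level was thus lowest in the cells with most Camp in both libraries.

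The other 4 members were at 7298, 6792, 7884, 8828 and 3277 CPM in these bins under combo. They stayed between 6792 and 8828 CPM up to 99 Camp UMIs and were lower in the last bin, while Stfa2l1 and Cstdc4 were lower already from the first bin with Camp. Under lenvatinib the 4 had 391 UMIs without Camp, 18, 9 and 0 UMIs in the next 3 bins and 61 UMIs in the last. Of these 61, 59 were Stfa3 UMIs, and the cell with 58 of them had 196 Camp UMIs. The median depth of the bins ran from 2488 to 11173 UMIs under lenvatinib and from 3914 to 18115 under combo.

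**Figure D3:**
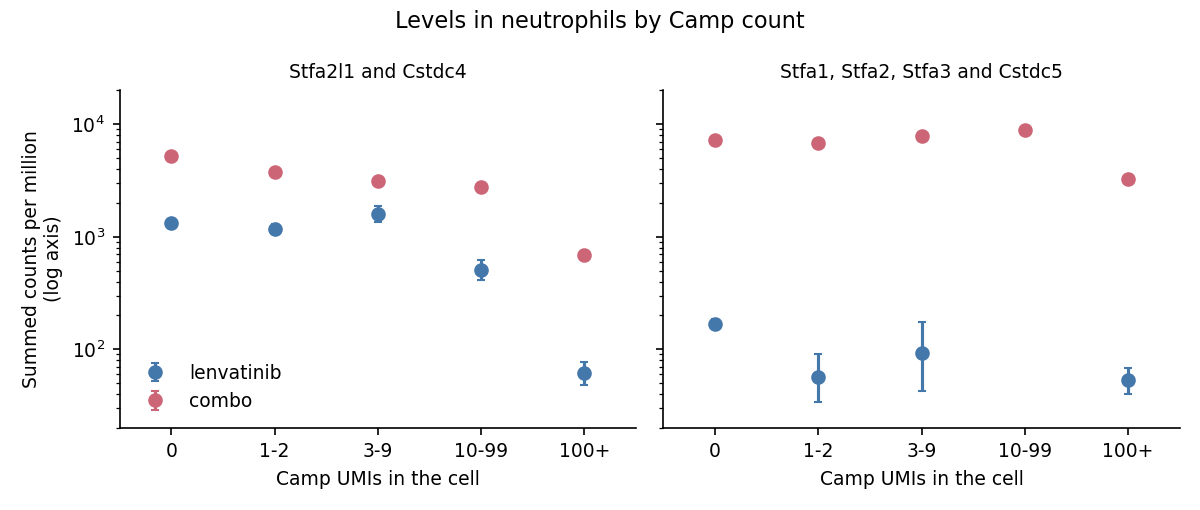
Summed CPM of Stfa2l1 and Cstdc4 (left) and of Stfa1, Stfa2, Stfa3 and Cstdc5 (right), on a log axis, in neutrophils binned by their number of Camp UMIs, with lenvatinib in blue, combo in red and exact Poisson 95% intervals as bars. Under combo the left pair goes from 5191 CPM without Camp to 695 CPM with 100 or more Camp UMIs, and the right set from 7298 to 3277 CPM; the lenvatinib bin of 10 to 99 had 0 UMIs of the right set and is not drawn.

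With the share of UMIs taken by S100a8 and S100a9, the family peaked inside the range. Under lenvatinib the summed level was 342 CPM in cells at 0.5 to 2%, 1971 CPM at 10 to 20% and 1328 CPM at 30% or more. Under combo it was 1088 CPM at 0.5 to 2%, 16063 CPM at 20 to 30% and 8100 CPM at 30% or more. Cells just inside the gate, at 0.5 to 0.6%, held 336 CPM under lenvatinib and 604 CPM under combo, and cells just outside, at 0.4 to 0.5%, held 75.5 and 151 CPM. One step farther out, at 0.3 to 0.4%, the levels were 87.7 and 272 CPM.

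The share of neutrophils with a UMI of any member was also higher under combo. Each cell was thinned to 2000 UMIs so that depth was equal, which left 684 neutrophils under lenvatinib and 2077 under combo and dropped 245 and 234 shallower ones. At least 1 member was detected in 36.8% (33.2 to 40.6%) of them under lenvatinib and in 75.3% (73.4 to 77.1%) under combo. Unthinned, it was 37.8% and 83.5%. In T cells, which should lack these genes, the thinned share was 0.356% under lenvatinib and 11.7% under combo, at median depths of 6285 and 5440 UMIs.

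Stfa2l1 was the member found in most neutrophils, in 28.5% of the thinned cells under lenvatinib and 56.6% under combo. For Cstdc4 the shares were 21.9% and 48.5%. Stfa1 was found in 3.36% and 35.9%, Cstdc5 in 2.05% and 36.5%, Stfa2 in 1.61% and 33.8%, and Stfa3 in 0.877% and 24.7%. Cstdc5, the member with the highest level under combo, was thus found in fewer cells than Stfa2l1.

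Members were found together more often under combo. After thinning, 4 or more members were detected in 7 of 684 lenvatinib neutrophils and in 626 of 2077 combo neutrophils. All 6 were detected in 0 of 684 neutrophils under lenvatinib, which allows a share of up to 0.439% at a floor of 3 counts, and in 224 of 2077 (10.8%) under combo. Over the thinned cells, the rank correlation of Stfa2l1 with Cstdc4 was 0.50 under lenvatinib and 0.65 under combo, the highest of the 15 pairs in both libraries. Under lenvatinib 100 of the 684 cells held both of these genes, against at most 16 cells for any other pair, so the ranking of pairs there rests on few cells. Under combo the next highest pairs were Stfa2 with Cstdc5 at 0.64 and Stfa2 with Stfa3 at 0.61, and the lowest was Stfa2l1 with Stfa3 at 0.40. These correlations are descriptions over cells of 1 library that share its depth and free RNA.

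**Figure D4:**
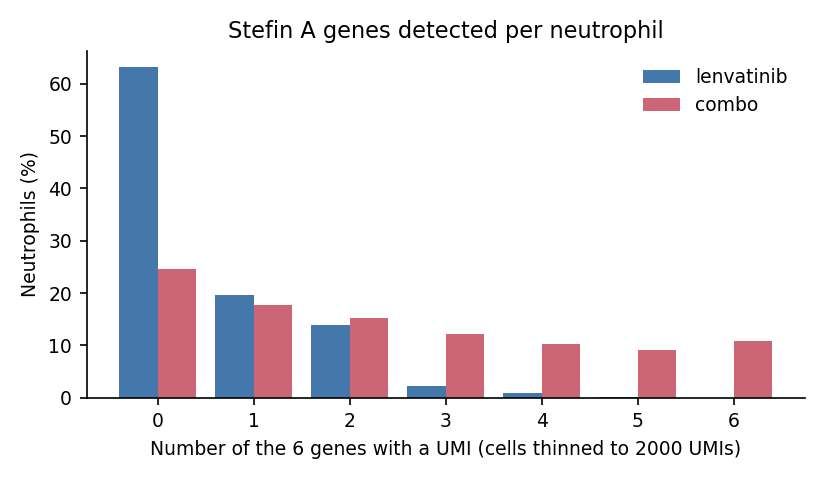
Share of neutrophils, in percent, by how many of the 6 genes had a UMI after each cell was thinned to 2000 UMIs, with lenvatinib (684 cells) in blue and combo (2077 cells) in red. Under lenvatinib 63.2% of cells had none and 0 had all 6; under combo 24.7% had none and 10.8% had all 6.

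Even under combo, the transcripts were spread unevenly over cells. The median neutrophil had 16 family UMIs, the upper quartile was 74 and the highest cell had 1801. The 10% of cells with most family UMIs held 61.3% of the family's UMIs under combo and 75.7% under lenvatinib. In 665 combo neutrophils (28.8%) the 6 genes made up at least 1% of all UMIs, against 31 (3.34%) under lenvatinib. The highest share in a single cell was 12.9% under combo and 4.14% under lenvatinib.

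Outside neutrophils the levels were low. Monocytes had 3 family UMIs over 214 cells under lenvatinib, or 2.17 CPM (0.448 to 6.35), and 545 UMIs over 843 cells under combo, or 72.0 CPM (66.1 to 78.3). T cells were at 1.89 CPM (1.54 to 2.30) and 62.4 CPM (59.7 to 65.3). The levels in B cells, NK cells, macrophages and dendritic cells lay in the same range. All 6 members were at least 2-fold higher in neutrophils than in monocytes under combo, against 7.43% of 3107 genes. Their choice had set this, and they passed the minimum of 50 CPM only through neutrophils. Under lenvatinib none had the 10 counts in monocytes needed for this comparison.

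**Figure D5:**
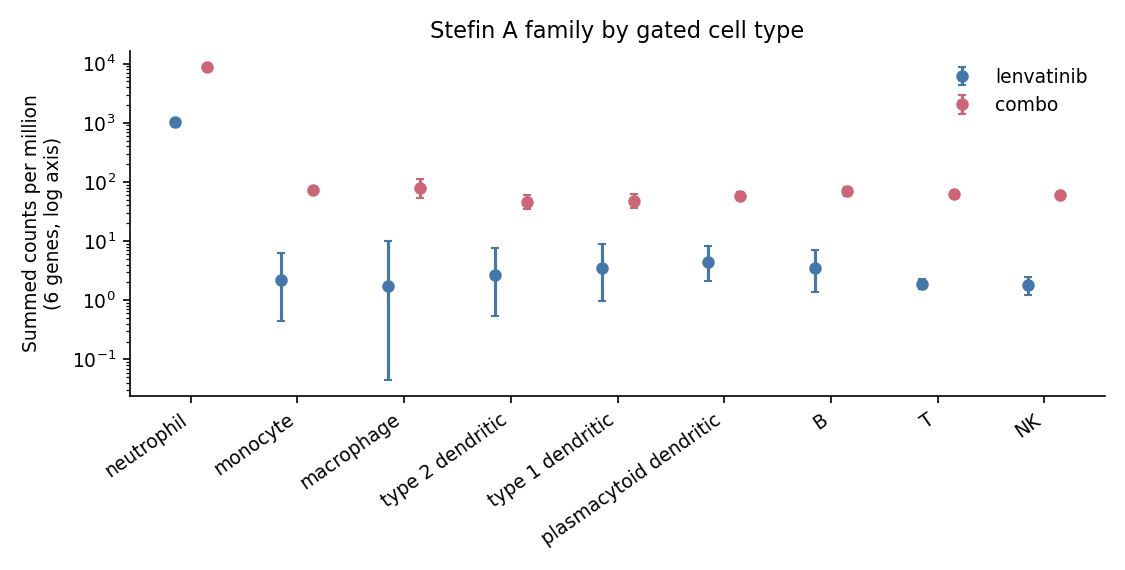
Summed CPM of the 6 genes, on a log axis, in cells gated by marker genes, with lenvatinib in blue and combo in red; bars are exact Poisson 95% intervals and each point is 1 library. Neutrophils stand at 1040 and 8919 CPM, while monocytes are at 2.17 and 72.0 CPM and T cells at 1.89 and 62.4 CPM.

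The low level in other cells was set against S100a8, a gene abundant in neutrophils whose transcripts were also counted in them. Monocytes held more S100a8 than T cells, at 408 against 125 CPM under lenvatinib and 1084 against 701 CPM under combo. Their S100a9 was at 102 against 103 CPM and 654 against 655 CPM. Whether monocytes expressed S100a8 themselves was not tested, so their values per S100a8 UMI are not directly comparable with those of T cells. Per 1000 S100a8 UMIs, combo neutrophils held 72.0 family UMIs (71.7 to 72.3), monocytes 66.4 (61.0 to 72.2), T cells 89.1 (85.2 to 93.1), NK cells 87.3 (79.8 to 95.4) and B cells 88.1 (74.4 to 104). Under lenvatinib, neutrophils held 13.8 (13.4 to 14.3), T cells 15.2 (12.3 to 18.4) and NK cells 15.7 (11 to 21.7). Plasmacytoid dendritic cells held 92.7 (79.8 to 107) under combo and 38.2 (18.3 to 70.2, from 10 UMIs) under lenvatinib, and lenvatinib monocytes held 5.32 (1.10 to 15.5, from 3 UMIs). Under combo, the values of T, NK, B and plasmacytoid dendritic cells lay above that of neutrophils. The intervals cover counting error only and not the uneven spread over cells, so they cannot show whether the proportion differed between types. The T cell level is taken as the background of each library. Monocytes were at or slightly above it, and what part of the counts outside neutrophils was free RNA was not tested. Subtracting the T cell level of each library from the neutrophil level left a log2 ratio of 3.09, against 3.10 without subtraction.

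Cells that passed no gate stood apart from this proportion. They held 121 family UMIs (99 to 145) per 1000 S100a8 UMIs under lenvatinib and 345 (321 to 369) under combo. There were 1459 such cells under lenvatinib and 663 under combo, with the 6 genes at 37.2 and 299.8 CPM, and 39 and 215 of them had a family UMI. Their S100a8 and S100a9 UMIs were below 0.5% by construction.

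Among the genes whose levels resembled the family most across 16 profiles (gated types in each library), the first was Retnlg, a resistin-like gene of neutrophils, with a Pearson correlation of log2 CPM of 0.99. It was at 3848 CPM in lenvatinib neutrophils and at 9963 CPM in combo neutrophils. Asprv1, a retroviral-like aspartic protease gene, came next at 0.97, with 210 and 859 CPM, followed by Ly6g, the neutrophil surface marker, at 0.96, with 154 and 324 CPM. The profiles share libraries and depth. Across single neutrophils, the genes closest in rank to the family in both libraries were Ifitm1, an interferon-induced membrane protein gene (0.30 under lenvatinib and 0.40 under combo), Slpi, the secretory leukocyte protease inhibitor (0.28 and 0.38), and Wfdc17, a gene of the same whey acidic protein class (0.27 and 0.37). The most negative were the chitinase-like gene Chil3 (-0.25 and -0.39) and Camp (-0.23 and -0.24). These correlations were weak.

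Cysteine proteases were compared in the same neutrophils. Stefins inhibit papain-like cathepsins, and legumain is not among their targets. Of 11 genes of cysteine cathepsins and legumain, 7 could be tested, and their median ratio was 1.45, against 0.757 over all 2659 genes. Ctsc, the gene of cathepsin C that activates granule serine proteases, was at 58.7 CPM under lenvatinib and 174 CPM under combo, a ratio of 2.97 (2.60 to 3.39), and it was the only one past 2-fold higher. Ctsw was the only one past 2-fold lower, at 67.7 and 25.4 CPM. Of the classical targets of stefin A, Ctsl was at 89.4 and 130 CPM, Ctss at 153 and 242 CPM, Ctsh at 67.0 and 116 CPM, and Ctsb at 342 and 305 CPM.

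The neutrophils of the libraries also differed in other genes. Of 15 granule genes, 3 were at least 2-fold higher under combo (Lcn2, Mmp8 and Retnlg) and 4 at least 2-fold lower (Elane, Mpo, Prtn3 and Ctsg), against 2.44% and 11.3% of all tested genes, with a median ratio of 1.27 against 0.757. Elane, the elastase gene of primary granules, was at 589 and 21.8 CPM but had a UMI in only 4.20% and 2.81% of neutrophils, and Mmp8, the neutrophil collagenase gene, at 451 and 1102 CPM. Of 12 genes of mature or activated neutrophils, 0 were at least 2-fold higher and 7 at least 2-fold lower, beside the same shares of all genes, with a median ratio of 0.422. Among these, the chemokine gene Ccl3 was at 1157 CPM under lenvatinib and 282 CPM under combo. The part of these differences in the levels of the stefin A genes was not tested.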

How the data were processed

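Live CD45+ cells of 2 libraries were profiled with 10X 3′ v3 chemistry, 1 library per treatment. Raw UMI counts for each gene and barcode, mapped to mm10, were deposited by the authors. Cell Ranger is version 5.0.1 in the submitters' processing notes and 6.0.1 in the matrix header. The authors' Seurat steps were not repeated. The members and gene lists were chosen with earlier results of these data known.

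Counts were summed per gated cell type and library and divided by the summed UMIs (CPM), with exact Poisson intervals. Ratios have exact conditional binomial intervals, and shares have Clopper-Pearson intervals (95%, scipy 1.17.1). Ratios of all genes were computed for genes with at least 50 CPM in 1 group and 10 counts in each. T cells had at least 2 Cd3 UMIs, NK cells at least 2 UMIs of their receptors, B cells at least 3 of Cd79a, Cd79b and Ms4a1, macrophages at least 0.1% C1q UMIs, and monocytes at least 3 Lyz2 UMIs and 2 of other monocyte genes. Cells past gates of several lineages were kept apart. Doublets were called with Scrublet in scanpy 1.11.5 (9.04% of lenvatinib and 5.15% of combo neutrophils) and were kept, except in an alternative. Genes named beyond the members were the neighbours in the cluster, the other cystatins, the listed proteases and neutrophil genes, the gate genes, and the 10 most similar genes by each measure, of which the first few are given. The steps were tested on simulated data. Alternatives covered the cell filter, gates, doublets, CPM total and thinning. Gene positions are from GENCODE vM21.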

Additional observations from a re-analysis of the deposited data

How the results depend on the processing

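The summed ratio of combo over lenvatinib kept its direction under every alternative run, in all neutrophils and in each subset. Log2 ratios that left the counting interval were 3.14 in all neutrophils with no cell filter, 2.91 in Ptgs2-negative cells with at most 10% mitochondrial UMIs, and 3.06 in all neutrophils with mitochondrial, ribosomal protein and hemoglobin genes out of the total. With the neutrophil gate at 2% they were 2.94 in all neutrophils, 2.74 in Ptgs2-positive and 2.56 in Ptgs2-negative cells. With cells past another type's gate left out they were 3.01 in all neutrophils and 2.41 in Ptgs2-negative cells. When the cells past the monocyte gate were kept, an alternative chosen after seeing the data, they were 3.02 in all neutrophils, 2.88 in Ptgs2-positive and 2.60 in Ptgs2-negative cells. Without called doublets they were 4.21 in Camp-positive, 3.0 in Ptgs2-positive and 2.62 in Ptgs2-negative cells. With S100a8 and S100a9 out of the total they were 3.27 in all neutrophils, 3.19 in Ptgs2-positive and 2.92 in Ptgs2-negative cells. The mean of CPM per cell gave 2.91, 3.78, 2.88 and 2.66 in all, Camp-positive, Ptgs2-positive and Ptgs2-negative cells. With Camp-positive set at 3 UMIs they were 4.48, 2.88 and 2.96 in the 3 subsets.

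The log2 ratio of Ptgs2-positive over Ptgs2-negative cells was -0.60 under lenvatinib and -0.32 under combo. It was -0.38 and -0.46 with Camp-positive set at 3 UMIs and -0.70 and -0.39 with Ptgs2-positive set at 3 UMIs. Under combo it was -0.29 without called doublets and -0.37 in cells of at least 2000 UMIs. The share of neutrophils with a family UMI was 30.5% and 68.2% when thinned to 1000 UMIs, 83.5% under combo without thinning and 79.5% under combo with the gate at 2%. The cause of these shifts was not tested. For single members, 50 of 72 values stayed within the counting interval and all kept their direction.

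No paired analysis was possible because each treatment had 1 library, and for the same reason no replicate was left out. Depth limits the lenvatinib values of Stfa1, Stfa2, Stfa3 and Cstdc5, which rest on 72 to 160 UMIs.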

Other observations

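Cystatins outside the stefin A cluster had other patterns in the same cells. Cstb, the gene of stefin B, the ubiquitous relative of stefin A, was at 258 CPM in lenvatinib neutrophils and 181 CPM in combo neutrophils, a ratio of 0.704 (95% interval 0.657 to 0.754). In Camp-positive cells it was at 89.5 and 137 CPM, and in Ptgs2-negative cells at 396 and 228 CPM, so its direction differed between these subsets, a difference that was not tested. In monocytes Cstb was at 257 and 307 CPM, and in T cells at 67.6 and 71.7 CPM.

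Cst3, the gene of the secreted inhibitor cystatin C, was at 776 CPM in lenvatinib neutrophils and 570 CPM in combo neutrophils, below its level in monocytes, 2771 and 1969 CPM. Cst7, the gene of cystatin F, which is known from cytotoxic lymphocytes, was at 34.8 and 11.1 CPM in neutrophils and at 160 and 173 CPM in NK cells. All intervals cover counting error only, and library and treatment cannot be told apart.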
